A study of Mus musculus with 24 samples.

Results

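The genes of the neutrophil granule followed across the dorsal root ganglion (DRG) samples were Mmp8, Mmp9, S100a8, S100a9, Ngp, Camp, Ltf and Lcn2. The proteins of S100a8 and S100a9 lie mainly in the cytosol of the cell, and the term granule genes covers them here too. The 8 genes were taken by name from the deposited expression table, so the set holds 8 of its 37620 genes, and Mmp8 was on the list because the study named it among genes that differed between spinal levels. How the 8 genes varied together over the samples, and where their values were blank, was part of that choice, and both are described below without a test. DRG hold the cell bodies of sensory neurons and their glia. RNA was sequenced from adult C57Bl6 mice of 6 to 8 weeks, with no treatment named in the labels, in 4 groups of lumbar male (n = 5), lumbar female (n = 7), sacral male (n = 5) and sacral female (n = 7) samples. The titles carry a mouse number, by which the 24 samples belong to 13 mice, and 11 of these (5 male, 6 female) gave both levels. The study set out to find what distinguishes sacral ganglia, which supply the pelvic organs, and counted the last lumbar ganglion with the sacral ones.

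Neutrophils are short-lived white blood cells that carry ready-made antimicrobial proteins in granules, which are filled in sequence while the cell matures in bone marrow. Genes of the secondary (specific) and tertiary (gelatinase) granules are switched on late in that sequence, after the primary (azurophil) granule genes such as Mpo and Elane have been shut off. Healthy nervous tissue holds few neutrophils outside its blood vessels.

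The 8 genes lie on 3 chromosomes (mm9, 1-based positions of the whole gene, introns included). S100a8 (ENSMUSG00000056054, chr3:90472993-90473956, plus strand) and S100a9 (ENSMUSG00000056071, chr3:90496554-90499643, minus strand) are neighbours, 22597 bases apart. Camp (ENSMUSG00000038357, chr9:109749889-109751970, minus strand), Ngp (ENSMUSG00000032484, chr9:110322254-110325514, plus strand) and Ltf (ENSMUSG00000032496, chr9:110921796-110945270, plus strand) lie within one stretch of chromosome 9, with 0.570 Mb between Camp and Ngp and 0.596 Mb between Ngp and Ltf. Mmp8 (ENSMUSG00000005800, chr9:7558429-7568486, plus strand) is 102 Mb from Camp on the same chromosome. Lcn2 (ENSMUSG00000026822, chr2:32240153-32243317, minus strand) and Mmp9 (ENSMUSG00000017737, chr2:164766280-164781350, plus strand) are at distant positions of chromosome 2.

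The sequence upstream of the start was available for 7 of the 8 genes and not for Mmp9 (RefSeq, GRCm38.p6, 250 bases before the start). A pair of short motifs, chosen with the gene names known, was searched there. TTGCNNAA, searched on both strands, is a form of the site bound by C/EBP factors, which act in granulocyte maturation. TATAAA, searched on the gene's own strand, is the core of the TATA box. TTGCNNAA was found in 5 of 7 windows (Mmp8, Ngp, Ltf, Lcn2 and S100a9), against 9.56% of 32851 windows of all genes, and TATAAA in 1 of 7 (S100a8), against 7.59%. The windows of Mmp8, Ngp and S100a8 are shown because these 3 varied together over the samples. The set is named for Mmp8, Ngp alone had TTGCNNAA at 2 places, and S100a8 had the highest mean level after the authors' batch correction. Capitals mark TTGCNNAA in either orientation in the first 2 windows and TATAAA in the last.
Mmp8, chr9:7558179-7558428, plus strand: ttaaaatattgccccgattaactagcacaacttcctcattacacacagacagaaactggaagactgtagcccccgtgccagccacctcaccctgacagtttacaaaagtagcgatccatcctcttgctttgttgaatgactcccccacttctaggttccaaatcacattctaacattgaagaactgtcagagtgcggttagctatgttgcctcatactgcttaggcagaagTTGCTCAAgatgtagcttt
Ngp, chr9:110419558-110419807, plus strand: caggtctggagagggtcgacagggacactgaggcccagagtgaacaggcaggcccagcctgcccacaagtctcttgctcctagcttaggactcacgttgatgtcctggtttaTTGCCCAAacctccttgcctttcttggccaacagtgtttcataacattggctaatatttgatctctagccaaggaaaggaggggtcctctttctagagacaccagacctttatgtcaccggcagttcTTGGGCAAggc
S100a8, chr3:90668821-90669070, plus strand: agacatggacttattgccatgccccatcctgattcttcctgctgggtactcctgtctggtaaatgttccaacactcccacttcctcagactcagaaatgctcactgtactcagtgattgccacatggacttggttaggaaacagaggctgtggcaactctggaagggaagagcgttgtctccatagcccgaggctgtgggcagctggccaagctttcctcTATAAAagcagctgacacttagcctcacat
Counted from the start, the motif began at −19 in Mmp8 and at −138 and, on the opposite strand, −11 in Ngp, and TATAAA began at −30 in S100a8. A match in these letters does not show that a factor binds there.

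Levels are given as log2 RPKM, the log2 of the reads of a gene scaled to its length in kilobases and to M reads of library, from which the authors had subtracted the difference between 2 preparation batches run in different facilities. Batch 1 held 5 female samples (2 lumbar, 3 sacral) and batch 2 the other 19, with all males. Library sizes ran from 27.6 to 44.6 M reads with a median of 39.6 M. The number of reads behind each value was recovered from the table. It ranged over the samples from 109 to 5273 for S100a8 (median 1546), from 12 to 1356 for Ngp (median 324), from 12 to 1139 for S100a9, from 14 to 1085 for Lcn2, from 0 to 554 for Mmp8 (median 111), from 2 to 333 for Ltf, from 0 to 211 for Mmp9 (median 24) and from 0 to 104 for Camp (median 13). A blank cell of the table stands for 0 reads. Blanks fell in Mmp8 (1, lumbar female 23), Mmp9 (1, sacral female 21) and Camp (4, in lumbar females 20 and 23, lumbar male 12 and sacral female 23), and the other 5 genes had none. By group there were 3 blanks in lumbar females, 2 in sacral females, 1 in lumbar males and 0 in sacral males. Each blank was set to the value of 0.5 reads. Of the 8 genes, 6 passed the filter on low values and entered the tests, and Mmp9 and Camp did not.

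The granule genes covered a wide range of levels in DRG. By the mean log2 RPKM over 24 samples the order was S100a8 (5.74 ± 0.99, SD), S100a9 (3.64 ± 1.48), Ngp (2.98 ± 1.62), Lcn2 (1.38 ± 1.17), Mmp8 (0.16 ± 2.20), Ltf (−0.08 ± 1.80), Camp (−1.39 ± 2.72) and Mmp9 (−2.28 ± 2.08). The gap between neighbours in this order was smaller than the larger of their 2 SDs, except between S100a8 and S100a9. These levels sit midway between the batches, and the order depends on that, because the shift that was removed differed from gene to gene.

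The 2 calprotectin genes stood on opposite sides of the batch difference. Calprotectin is the dimer of S100a8 and S100a9, the most abundant protein of the neutrophil cytosol, which binds zinc, manganese and calcium. The log2 difference (batch 2 minus batch 1) subtracted by the authors was 2.17 for S100a8 and −3.39 for S100a9. In reads, S100a8 over S100a9 was 0.501 to 0.680 in the 5 samples of batch 1 (median 0.550) and 6.62 to 98.6 in the 19 samples of batch 2 (median 20.1), so the batches did not overlap. Within batch 2 the ratio ran from 6.62 to 40.7 in sacral females, from 20.1 to 98.6 in lumbar females, from 9.21 to 34.5 in sacral males and from 7.77 to 68.6 in lumbar males, and these groups overlapped. The shift was also negative for Lcn2 (−2.81), Ltf (−2.48), Ngp (−1.90), Mmp9 (−1.87), Camp (−0.45) and Mmp8 (−0.40), so S100a8 was the only member with fewer reads in batch 1 at matched group and depth. Batch 1 had only females, and facility and animals cannot be told apart in it.

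**Figure D1:**
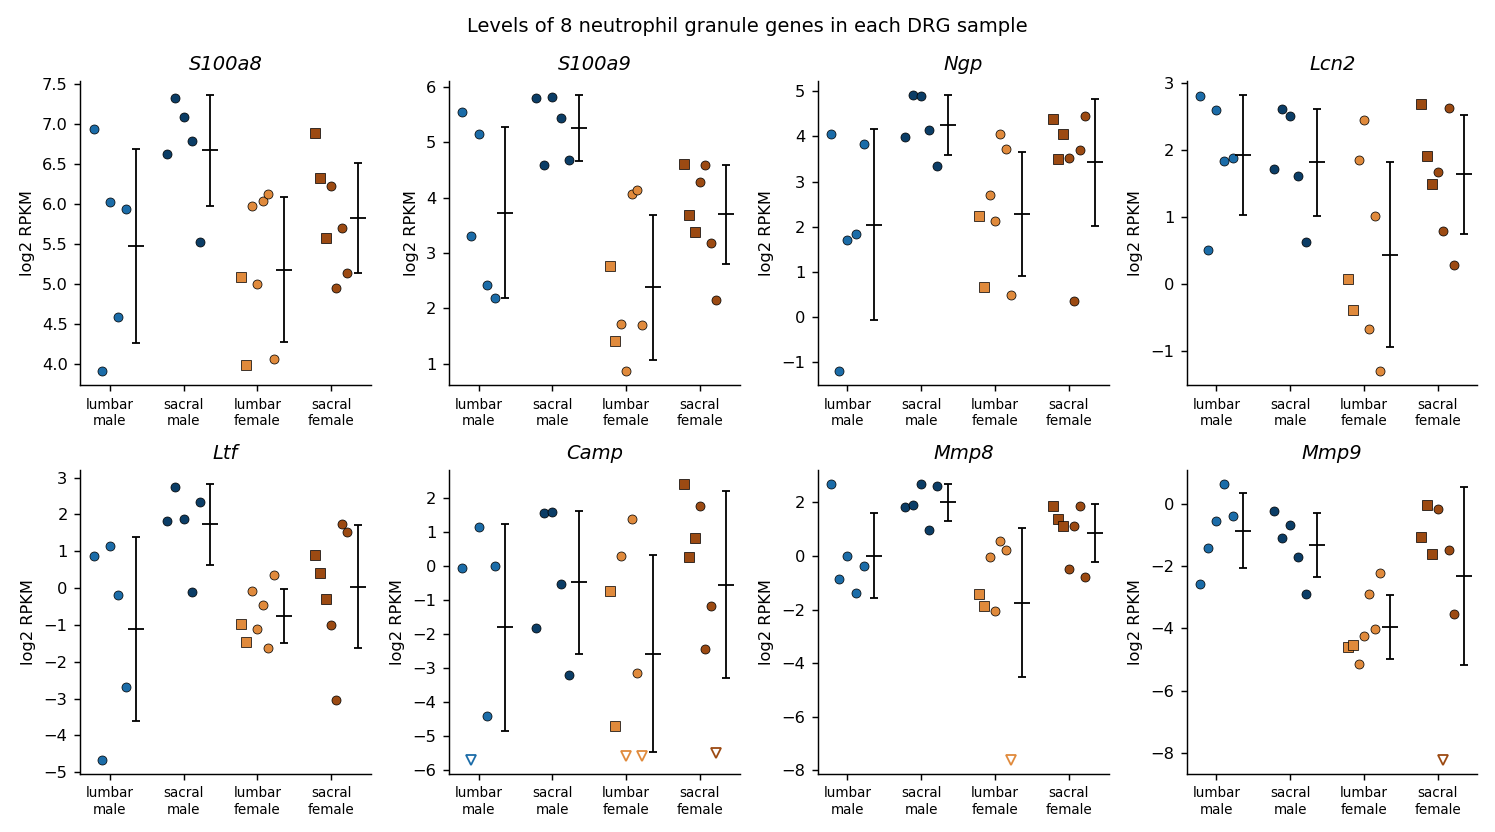
Log2 RPKM of the 8 granule genes in each of 24 DRG samples, by level and sex, with circles for batch 2, squares for batch 1, open triangles for blank cells set to 0.5 reads, and bars for the group mean and SD (blanks included). Sacral males lie in a narrow band for Mmp8 (0.96 to 2.70), S100a9 (4.58 to 5.81) and Ngp (3.36 to 4.92), while lumbar males are spread more widely and overlap with them. Lumbar females overlap with them for Ngp and lie below them for Mmp8 and S100a9.

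In S100a8, lumbar male samples 11 to 15 measured 6.94, 3.91, 6.03, 4.58 and 5.93 log2 RPKM and the sacral male samples 6.63, 7.33, 7.09, 6.79 and 5.53. Lumbar females ran from 3.98 to 6.13 with a median of 5.09, and sacral females from 4.95 to 6.89 with a median of 5.70. Lumbar male 12 was the lowest of all 24 and sacral male 12, from the same mouse, the highest, and the levels overlapped in both sexes.

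S100a9 measured 5.54, 3.31, 5.15, 2.43 and 2.20 in lumbar males 11 to 15 and 5.79, 4.58, 5.81, 5.44 and 4.68 in the sacral samples of the same mice. In females the lumbar samples ran from 0.87 to 4.14 (median 1.71) and sacral females from 2.15 to 4.61 (median 3.69). The sacral sample was the higher in each of the 5 male mice, although lumbar males 11 and 13 lay within the sacral male range.

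Among the specific granule genes, Ngp, which encodes a cathelicidin-like granule protein with a cystatin fold, measured 4.06, −1.20, 1.70, 1.83 and 3.82 in lumbar males and 3.99, 4.92, 4.90, 4.13 and 3.36 in sacral males. Lumbar females ran from 0.48 to 4.05 (median 2.24) and sacral females from 0.36 to 4.46 (median 3.71). The value of 0.36 belonged to sacral female 21, and the other 6 sacral females were at 3.50 or above.

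Ltf, lactoferrin, an iron-binding antibacterial protein, measured 0.86, −4.67, 1.13, −0.20 and −2.70 in lumbar males and 1.82, 2.75, 1.89, −0.12 and 2.35 in sacral males. Females ran from −1.64 to 0.35 in lumbar samples (median −0.97) and from −3.03 to 1.75 in sacral samples (median 0.41). Lumbar male 12 had 2 reads, the lowest of the 24 samples for Ltf, and sacral female 21 was the lowest of its group.

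Lcn2, lipocalin-2, which withholds iron from bacteria by binding their siderophores and which injured tissue cells also make, measured 2.80, 0.51, 2.60, 1.83 and 1.87 in lumbar males. The sacral males were at 1.71, 2.61, 2.51, 1.61 and 0.62. The lumbar females ran from −1.31 to 2.45 (median 0.068) and sacral females from 0.28 to 2.69 (median 1.66). In males the 2 levels covered nearly the same range, whereas in females 5 of 6 mice had the higher value in the sacral sample.

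Camp, the precursor of the antimicrobial peptide CRAMP, measured −0.05, 1.14, −4.41 and 0.00 in lumbar males 11, 13, 14 and 15, with 0 reads in lumbar male 12. Sacral males were at −1.83, 1.56, 1.59, −0.53 and −3.21. Lumbar females with a value ran from −4.71 to 1.38 and sacral females with a value from −2.44 to 2.43. The median sample had 13 reads, so single reads move these values.

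The 2 matrix metalloproteinases differed from each other. Mmp8, neutrophil collagenase, a specific granule enzyme that cuts fibrillar collagens, measured 2.67, −0.84, −0.01, −1.38 and −0.39 in lumbar males and 1.83, 1.91, 2.70, 0.96 and 2.60 in sacral males. Lumbar females ran from 0 reads in female 23, through −2.05 in the lowest sample with a value, to 0.57 (median −1.44), and sacral females from −0.78 to 1.88 (median 1.12). The sacral samples were the higher in 9 of 11 mice, and lumbar male 11, at 2.67, lay above all but 1 of the sacral samples.

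Mmp9, gelatinase B of the tertiary granule, which macrophages and injured nervous tissue also make, measured −2.56, −1.43, −0.57, 0.64 and −0.39 in lumbar males and −0.24, −1.11, −0.69, −1.72 and −2.88 in sacral males. Lumbar females ran from −5.13 to −2.21 (median −4.24). Sacral females with a value ran from −3.55 to −0.05, with 0 reads in female 21. Lumbar females were thus the low group for Mmp9, with 2 to 16 reads a sample, and only lumbar male 11 of the males at that level lay in their range.

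Between levels, the members were higher on average in sacral DRG. The study picked Mmp8 from this contrast in these samples, and how the genes varied together over them was part of their choice. Genes that vary with Mmp8 tend to share its level difference. The values, here and by sex below, are therefore given as a description. The sacral minus lumbar log2 change over both sexes was 2.26 ± 0.70 (SE) for Mmp8, 1.83 ± 0.62 for Ltf, 1.68 ± 0.55 for Ngp, 1.43 ± 0.44 for S100a9, 0.92 ± 0.34 for S100a8 and 0.55 ± 0.41 for Lcn2. The values of the 6 tested members had a median of 1.55 against 0.01 over all 12650 tested genes. Ltf passed the filter only through the sacral groups, so it had to be higher there. With limma, 0 of 6 were called at a Benjamini-Hochberg adjusted p of 0.05 or less (2.44% of all tested genes were), and 5 of 6 had an unadjusted p under 0.05 (14.1% of all). Without the filter on low values the change was 1.58 ± 1.09 for Camp and 0.52 ± 0.73 for Mmp9. In batch 2 alone the change was 2.10 for Mmp8, 1.62 for Ltf, 1.30 for Ngp and S100a9, 0.63 for S100a8 and 0.28 for Lcn2. Bulk RNA cannot tell fewer cells of a type from less RNA per cell.

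The absence of a call did not hold under each alternative. The calls below are descriptions too. Mmp8 was picked from this contrast, covariation was part of the choice of genes, and Ltf passed the filter only through the sacral groups. Mmp8 was called in limma where blanks were left missing (1.81 ± 0.47, adjusted p = 0.0406) and on the log2(RPKM + 1) scale (1.05 ± 0.26, adjusted p = 0.0255), as was Ltf on that scale (0.92 ± 0.25, adjusted p = 0.0463). Without single libraries, limma called Mmp8 without lumbar female 23 (1.81, adjusted p = 0.0410), S100a9 without lumbar male 11 (1.66, adjusted p = 0.0389), lumbar female 21 (1.56, adjusted p = 0.0486) or lumbar female 22 (1.56, adjusted p = 0.0471), and Ngp (1.99, adjusted p = 0.0288) and Ltf (2.14, adjusted p = 0.0455) without sacral female 21.

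**Figure D2:**
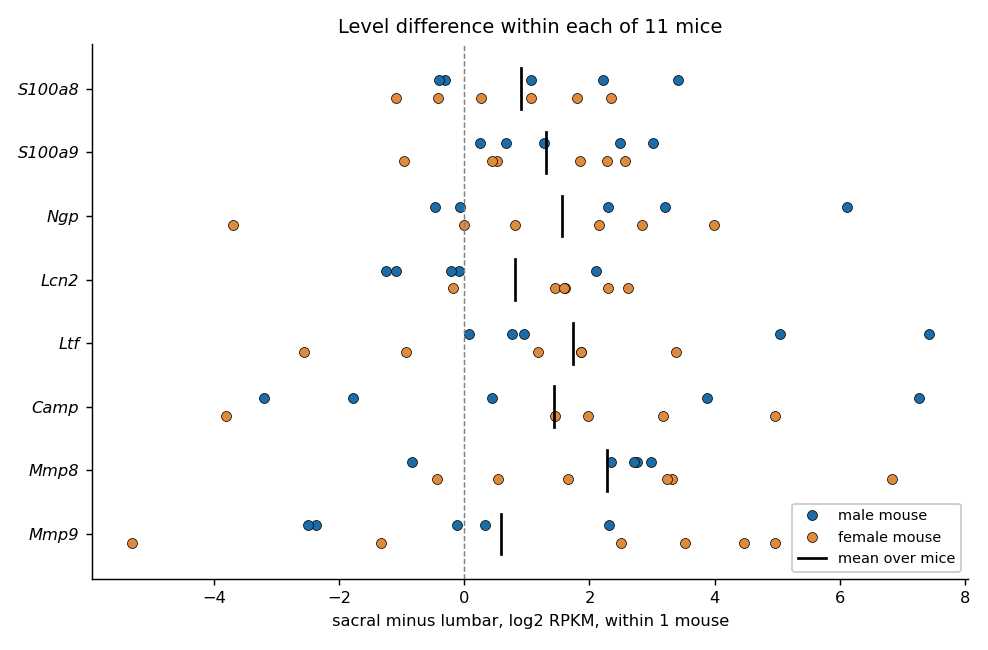
Sacral minus lumbar difference in log2 RPKM within each mouse that gave both levels (x axis), for the 8 granule genes (rows), with 1 point per mouse and the mean over mice as a black line. Camp has 10 mice, because both samples of female 23 were blank, and S100a9 is the gene with the most mice to the right of 0 (10 of 11).

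Within mice the sacral sample was the higher in 10 of 11 for S100a9, 9 of 11 for Mmp8 and Ltf, 7 of 11 for S100a8 and Ngp, 7 of 10 for Camp and 6 of 11 for Lcn2 and Mmp9. Of all tested genes, 6.10% were higher in at least 9 of 11 mice. The size of the difference varied from mouse to mouse. Male 12 had the largest rise of any mouse for Ltf (7.42), Camp (7.27), Ngp (6.12) and S100a8 (3.42). Female 21 had the largest fall for Mmp9 (−5.32), Camp (−3.82), Ngp (−3.69), Ltf (−2.56) and S100a8 (−1.09), while its Mmp8 (0.55), S100a9 (0.52) and Lcn2 (1.46) were higher in the sacral sample. The differences of Camp in male 12 and Mmp9 in female 21 each rest on a blank set to 0.5 reads, so their size depends on that fill.

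Taken by sex, the males' changes were 2.85 ± 0.95 for Ltf, 2.21 ± 0.84 for Ngp, 1.99 ± 1.07 for Mmp8, 1.53 ± 0.66 for S100a9, 1.20 ± 0.51 for S100a8 and −0.11 ± 0.63 for Lcn2. The females' were 2.53 ± 0.91 for Mmp8, 1.32 ± 0.56 for S100a9, 1.20 ± 0.54 for Lcn2, 1.14 ± 0.72 for Ngp, 0.80 ± 0.81 for Ltf and 0.65 ± 0.44 for S100a8. With limma, 0 of 6 were called in either sex (0.648% of all tested genes in males and 0.451% in females), and 4 in males and 3 in females had an unadjusted p under 0.05 (11.2% and 8.42% of all). In batch 2 alone the females' changes were 2.22 for Mmp8, 1.06 for S100a9, 0.67 for Lcn2, 0.40 for Ltf, 0.39 for Ngp and 0.067 for S100a8. Single libraries moved several of these values. The females' change of Mmp8 was 1.64 without lumbar female 23, those of Ngp and S100a8 were 0.73 and 0.35 without lumbar female 12, and those of Ngp and Ltf were 1.76 and 1.42 without sacral female 21. The females' change of Ltf was 0.46 without sacral female 22 and 0.49 without sacral female 23. The males' change of Ngp was 1.40 without lumbar male 12, and that of Lcn2 ran from −0.46 (without lumbar male 12) to 0.19 (without sacral male 15).

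Whether the level change differed between the sexes was tested by an interaction term. With limma it passed for 0 of 6 members (adjusted p = 0.999 for each, 0.00% of all tested genes called), and 0 of 6 had an unadjusted p under 0.05 (4.60% of all). The largest terms, females minus males, were −2.05 ± 1.25 for Ltf and 1.31 ± 0.83 for Lcn2, both within 2 SEs of 0. Where each mouse of the 11 with both levels had a fixed term of its own, the term of Lcn2 was 1.68 ± 0.62 (limma, unadjusted p = 0.0172, adjusted p = 0.999), and 1 of 6 members then had an unadjusted p under 0.05 (4.59% of all). Without lumbar male 12 the term of Ltf was −1.16.

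The sexes were also compared at each level. Where blanks fell among the groups was part of the choice of genes, so the values of Mmp8, Mmp9 and Camp, which have blanks, are not independent of it. In lumbar DRG the female minus male log2 change was −1.93 ± 1.01 for Mmp8, −1.49 ± 0.60 for Lcn2, −1.34 ± 0.63 for S100a9, −0.30 ± 0.49 for S100a8, 0.24 ± 0.80 for Ngp and 0.35 ± 0.90 for Ltf. With limma, 0 of 6 were called (adjusted p = 0.611 to 0.966, with 0.0474% of all tested genes called), and 2 of 6, Lcn2 and S100a9, had an unadjusted p under 0.05 (7.38% of all). In the fit without the filter the lumbar change of Mmp9 was −3.35 ± 1.05 (limma, adjusted p = 0.638), the largest of the 8 genes, and that of Camp −1.23 ± 1.58. The Mmp8 value was −0.77 without lumbar female 23 and likewise −0.77 with blanks left missing. Without lumbar male 11 it was −1.27, and that of S100a9 −0.88. The 7 tested erythroid genes (globins and other red cell genes) had a median female minus male change of −1.003 in lumbar DRG, with 0 called by limma and 4 at an unadjusted p under 0.05 (7.38% of all). With their mean as a covariate the lumbar change was −0.86 for Lcn2, −1.75 for Mmp8 and −1.30 for S100a9.

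In sacral DRG the female minus male change was −1.70 ± 0.94 for Ltf, −1.56 ± 0.66 for S100a9, −1.40 ± 1.06 for Mmp8, −0.85 ± 0.51 for S100a8, −0.83 ± 0.84 for Ngp and −0.18 ± 0.62 for Lcn2. In this fit all 6 were lower in females, with 0 of 6 called by limma (adjusted p = 0.488 to 0.956, with 0.0791% of all tested genes called) and 1, S100a9, at an unadjusted p under 0.05 (8.73% of all). Without sacral female 21 the change was −0.93 for Ltf and −0.060 for Ngp. The 7 tested erythroid genes had a median female minus male change of −0.58 in sacral DRG. By limma 0 of them were called and 0 had an unadjusted p under 0.05 (8.73% of all). With their mean as a covariate the sacral change was −1.525 for S100a9, −1.49 for Ltf, −1.25 for Mmp8, −0.47 for S100a8, −0.39 for Ngp and 0.33 for Lcn2. The sacral and lumbar comparisons use samples of the same mice. Within batch 2, which holds both sexes, the sacral values were −1.92 for Ltf, −1.70 for S100a9, −1.57 for Mmp8, −1.24 for Ngp, −1.17 for S100a8 and −0.48 for Lcn2, and the lumbar values −1.80 for Mmp8, −1.26 for Lcn2, −1.23 for S100a9, −0.038 for S100a8, 0.53 for Ltf and 0.58 for Ngp.

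**Figure D3:**
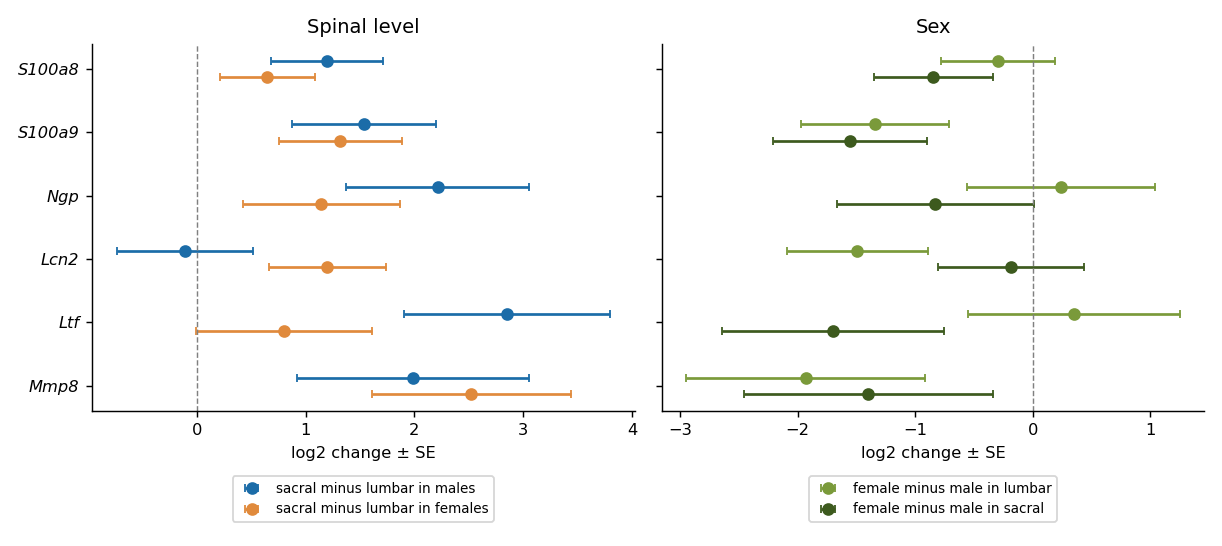
Log2 change ± SE of the 6 tested granule genes from the limma fit, between levels within each sex (left) and between sexes at each level (right). The level changes lie to the right of 0 apart from Lcn2 in males (−0.11), and the sacral sex changes all lie to the left.

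The members varied together from sample to sample. Over 24 samples the 28 pairs of members had a median Pearson r of 0.479, from 0.135 (Mmp8 with Mmp9) to 0.835 (S100a8 with Ngp), and all 28 were positive. S100a8 was the member most like the others (median r of 0.706 with the other 7), followed by Mmp8 and Ngp (0.598 each), Camp (0.556), Lcn2 (0.459), S100a9 (0.420), Ltf (0.348) and Mmp9 (0.332). The highest pairs after S100a8 with Ngp were S100a8 with Camp (0.798), with Mmp8 (0.713) and with S100a9 (0.706), and Mmp8 with S100a9 (0.702). These values share the batch correction and, for 11 mice, the animal, and this covariation was a reason for choosing the genes.

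The covariation was lower once the group means were taken out. For deviations from the 4 group means the median r was 0.404 (−0.238 to 0.814, with 26 of 28 above 0). In batch 2 alone it was 0.403 over 19 samples, and for the sacral minus lumbar differences of 11 mice 0.320. S100a8 kept its high r within groups with Camp (0.814), Ngp (0.796) and Lcn2 (0.660). Mmp8 with Mmp9 was −0.238 within groups, and S100a9 with Mmp9 was −0.075.

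**Figure D4:**
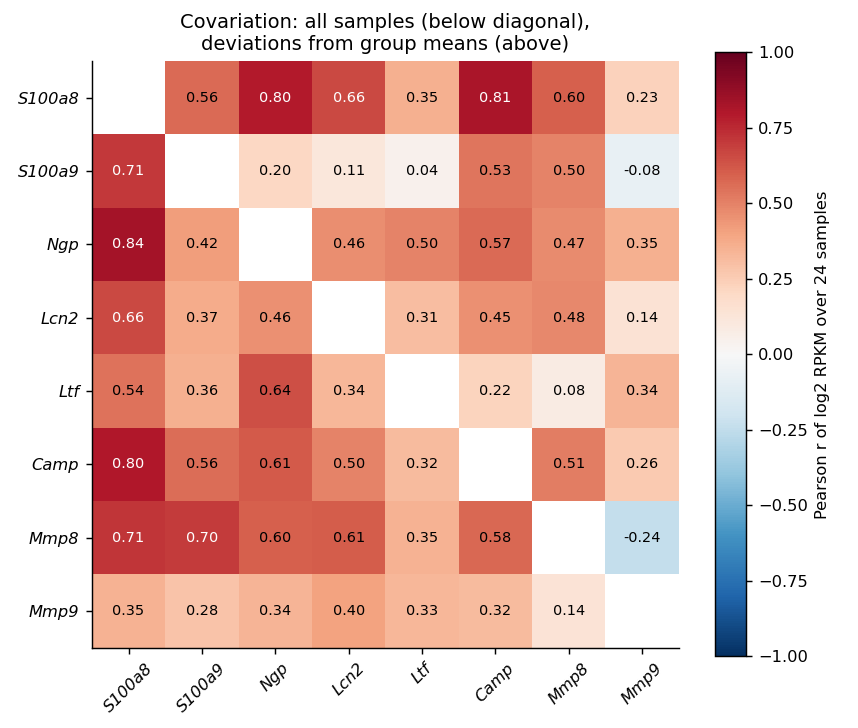
Pearson r between the granule genes over 24 samples, from log2 RPKM (below the diagonal) and from deviations from the 4 group means (above it), with red for positive and blue for negative values. The S100a8 column is the reddest below the diagonal, and the only blue cells above it are those of Mmp9 with Mmp8 and S100a9.

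A mean over the 6 tested members, each standardised over the samples, placed lumbar female 23 lowest (−1.69), then lumbar male 12 (−1.40) and lumbar female 12 (−1.32). Sacral males 13 (1.20) and 12 (1.14) were highest, with lumbar male 11 (1.01) next. All 5 sacral males lay at 0.42 or above, and sacral female 21 (−0.58) was the lowest sacral sample.

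The 10 genes most like this mean, of 12644 tested genes that are no members, were Penk (r = 0.798), Chi3l3 (0.796), Fam89a (0.732), Cartpt (0.723), Lyz2 (0.721), Chst10 (0.712), Tac1 (0.703), Itgb2 (0.693), Eid1 (0.690) and Hbb-b2 (0.675). The median over all genes was −0.05 and the 99th percentile 0.510. Chst10 lay near the floor, with a mean of −2.66 log2 RPKM and 4 blank cells set to 0.5 reads. Chi3l3 (Ym1, a chitinase-like protein of myeloid cells, with close copies beside it), Lyz2 (lysozyme of myeloid cells) and Itgb2 (the beta chain of leukocyte integrins) are genes of white blood cells, and Hbb-b2 is a globin. Penk, Cartpt and Tac1 encode neuropeptide precursors of sensory neurons. For deviations from the group means, r was 0.671 for Lyz2, 0.653 for Eid1, 0.616 for Chi3l3 and Itgb2, 0.603 for Penk and 0.562 for Chst10. It was 0.498 for Hbb-b2, 0.477 for Cartpt, 0.471 for Fam89a and 0.268 for Tac1. In the order of all 12644 genes by this within-group r, Penk stood at place 31.

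The wider neutrophil programme was seen in part. Of 29 other neutrophil genes listed, 9 passed the filter, and their mean followed that of the granule genes (r = 0.861 over 24 samples, 0.773 within groups). By limma 1 of the 9 was called higher in sacral DRG, as were 1.15% of all tested genes. It was Chi3l3, which ran from −1.85 to 2.29 log2 RPKM in lumbar samples (median −0.09) and from 0.49 to 3.38 in sacral samples (median 1.95), overlapping, and was the higher in the sacral sample of 9 of 11 mice (1.86 ± 0.44, limma adjusted p = 0.0188). It lost its call in 4 of 34 alternatives (adjusted p up to 0.104), which were mouse as a fixed block, no filter, batch 2 alone and an erythroid covariate, with changes of 1.77, 1.86, 1.69 and 1.64. Of the 9 genes, 3 (Hp, Itgb2 and Cxcr2) passed the filter only through sacral groups.

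Defining neutrophil markers were blank in part of the samples. Ly6g, the surface protein used to identify mouse neutrophils, had a value in 10 of 24 samples, Csf3r in 19, Cxcr2 in 22 and Cd177 in 22. Of the 8 azurophil granule and precursor genes only Ms4a3 passed the filter (−0.32 ± 0.56, limma adjusted p = 0.863), while Mpo had a value in 22 samples, Elane in 19, Ctsg in 7 and Prtn3 in 5. Mpo (myeloperoxidase) had a median of −2.38 log2 RPKM in lumbar and −0.018 in sacral samples and was the higher in the sacral sample of 10 of 11 mice. Elane (neutrophil elastase) had medians of −1.39 and −1.10 and was the higher in the sacral sample of 7 of 10 mice. The summed RPKM of the 8 azurophil genes was 1.42 to 4.09 in lumbar males, 0.94 to 8.78 in lumbar females, 1.09 to 11.01 in sacral males and 0.84 to 6.24 in sacral females, so the groups overlapped. The medians were 2.42 in lumbar males and 8.47 in sacral males, and 1.69 in lumbar females and 3.004 in sacral females. That of the 8 granule genes was 27.7 to 202 in lumbar males, 21.5 to 105 in lumbar females, 94.9 to 242 in sacral males and 60.4 to 182 in sacral females. The label of the set is a label of genes, and which cells carried these transcripts was not measured.

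Red cell genes moved with the granule genes. Of 11 erythroid genes 7 passed the filter, and their mean had an r of 0.653 with the granule genes over 24 samples and 0.454 within groups. The summed RPKM was 72.1 to 242 in lumbar males, 30.2 to 174 in lumbar females, 89.2 to 247 in sacral males and 50.7 to 217 in sacral females, so the groups overlapped. Between levels their changes ran from 0.57 to 1.14 (median 0.67) and 0 were called by limma, with 3 of 7 at an unadjusted p under 0.05 (14.1% of all). The most abundant were the globins Hbb-b1 (0.63 ± 0.31, limma adjusted p = 0.366), Hba-a2 (0.62 ± 0.29, adjusted p = 0.336) and Hba-a1 (0.57 ± 0.28, adjusted p = 0.364). The last 2 are near-identical copies, and only uniquely mapping reads were kept. With the erythroid mean as a covariate the level changes were 2.08 for Mmp8, 1.58 for Ltf, 1.39 for S100a9, 1.15 for Ngp, 0.48 for S100a8 and −0.070 for Lcn2. In females alone they were 2.33 for Mmp8, 1.28 for S100a9, 0.57 for Ngp, 0.53 for Ltf and Lcn2 and 0.16 for S100a8. In males alone they were 2.62 for Ltf, 1.83 for Mmp8, 1.74 for Ngp, 1.5 for S100a9, 0.80 for S100a8 and −0.67 for Lcn2.

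**Figure D5:**
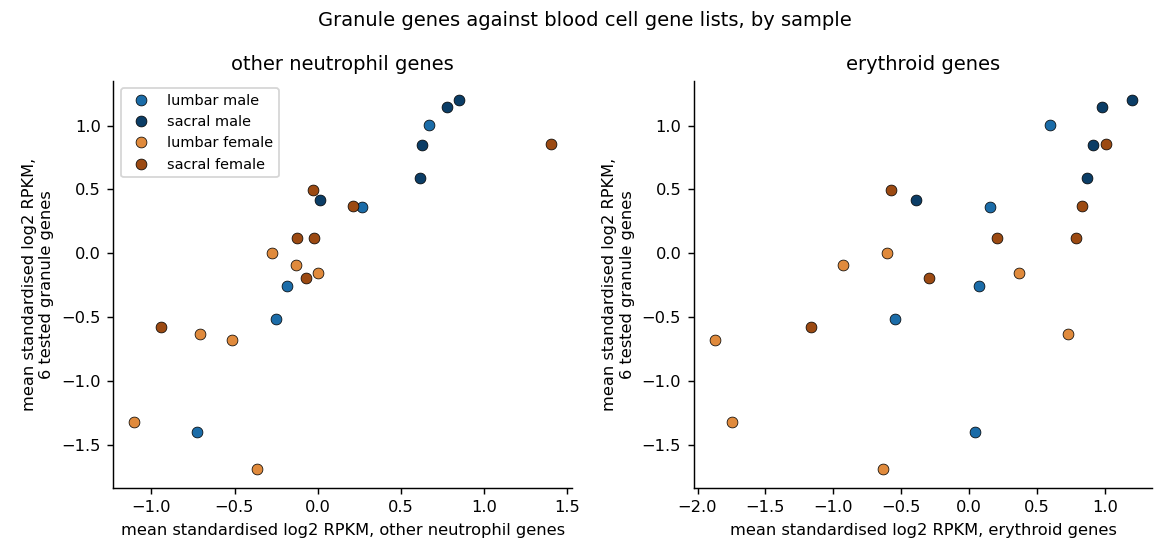
Mean standardised log2 RPKM of the 6 tested granule genes (y axis) against that of 9 other neutrophil genes (left) and 7 erythroid genes (right), with 1 point per sample coloured by group. The points follow a narrower band on the left (r = 0.861) than on the right (r = 0.653), where lumbar male 12 lies low for its erythroid level.

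The lists of other blood and immune cells had a lower r with the granule genes than the erythroid list, from −0.071 (eosinophil and mast cell) to 0.416 (platelet). The B cell, monocyte, and eosinophil and mast cell values rest on 1 tested gene each, and the erythroid value on a mean of 7. The mean of the 6 tested macrophage genes had an r of 0.072 with the granule genes over 24 samples and 0.353 within groups, and 0 of them were called by limma (median −0.28), with values of −0.37 ± 0.38 for C1qb, −0.39 ± 0.36 for C1qc and −0.08 ± 0.41 for Cd68. Of 7 B cell genes only Ms4a1 (CD20) was tested, which passed the filter only through sacral groups. It changed by 3.20 ± 1.04 and was higher in 10 of 11 mice without passing (limma adjusted p = 0.109). Of 4 platelet genes Ppbp changed by 1.94 ± 0.88 and Pf4 by −1.17 ± 0.81, and neither passed. Ccr2, the 1 monocyte gene tested of 3, was not called, nor was Cpa3, the 1 of 6 mast cell and eosinophil genes tested, and 0 of 3 T and NK cell genes were tested. The bone gene Ibsp, the 1 tested of 10, changed by −1.02 and was not called. The part of any of these cell types in the level difference of the granule genes was not tested.

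Proliferation genes were a further list. Mki67, a marker of cycling cells, changed by 0.95 ± 0.29 and was higher in sacral DRG in 10 of 11 mice (limma adjusted p = 0.0821), and Top2a by 0.42 ± 0.31. Their mean had an r of 0.567 with the granule genes and of 0.294 within groups.

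The partners of the granule proteins differed widely in level. Timp1 had a value in 12 of 24 samples, Timp4 in 5 and Ager, a receptor that binds S100 proteins, in 4. The tissue inhibitors Timp2 (mean 7.79 log2 RPKM) and Timp3 (5.36), which block metalloproteinases, were abundant, as was Slc22a17 (3.83), described as a receptor for lipocalin-2. By limma 0 of 6 tested inhibitors and receptors of 9 were called between levels, with changes of −0.11 ± 0.07 for Timp2, −0.34 ± 0.10 for Timp3 (adjusted p = 0.0787) and 0.04 ± 0.13 for Slc22a17. Timp3 was lower in the sacral sample in all but 1 of 11 mice. The mean of the 6 tested inhibitors and receptors had an r of −0.310 with the granule genes over all samples and of 0.191 within groups.

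The other metalloproteinases showed no call. Of 15 further Mmp genes 7 were tested, 0 were called between levels and 1 was positive (median −0.25). The most abundant, Mmp25 (a membrane-bound enzyme of leukocytes), Mmp15 and Mmp14 (membrane-type enzymes of many tissues), changed by −0.31 ± 0.14, −0.51 ± 0.19 and −0.18 ± 0.29. The mean of the 7 tested genes had an r of −0.298 with the granule genes over all samples and of −0.208 within groups.

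The tissue itself carried its own markers. All 7 sensory neuron genes, 3 Schwann cell genes and 2 satellite glia genes passed the filter. Between levels limma called Trpv1, the capsaicin receptor, higher in sacral DRG (1.22 ± 0.17, adjusted p = 7.39e-05) and Nefh, the heavy neurofilament of large myelinated neurons, lower (−0.64 ± 0.09, adjusted p = 9.91e-05). Prx, a gene of myelinating Schwann cells, was lower too (−1.30 ± 0.24, limma adjusted p = 0.00219). These 3 genes kept their calls in all 34 alternatives.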

How the data were processed

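RNA-seq of lumbar and sacral DRG was analysed from 1 deposited table of 24 samples. According to the methods of the study and the submitters' processing notes, the authors aligned reads to mm9 with Subread (up to 5 indels and 5 mismatches), kept uniquely mapping reads, counted them per Ensembl gene with featureCounts, and made log2 RPKM values with voom and TMM (limma 3.26.9, edgeR 3.12.1). Batch was then subtracted by the authors with removeBatchEffect. The deposited log2 values, not counts, were analysed, and use of strand in counting was not given in the sources used here.

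The members and lists were chosen with earlier results of these data known. Names and positions came from GENCODE M1 on mm9. Blanks (30.3% of cells in genes with a value) were set to 0.5 reads. The step of a single read gave library sizes and the members' reads (at least 97.0% of low values whole within 0.05 reads). Reads were not marked with molecular identifiers, so their number covers counting error only. The tests were limma models (limma 3.58.1, statmod 1.5.0, R 4.3.3) holding the group means, a batch term, a random effect of mouse and an intensity trend, two-sided, with Benjamini-Hochberg adjustment over 12650 genes whose mean log2 RPKM was at least 0 in 1 group or more. The pairing came from the mouse numbers in the titles. Deviations from group means of the 2 samples of a mouse had a mean r of −0.041 over 11 mice (−0.221 to 0.034), and the consensus correlation was −0.017. Named were all 8 members, the called genes of each list or else up to 3 of its most abundant, and the 10 genes most like the members' mean. A called gene of the lists is not reported here. In addition Ly6g, Csf3r, Cxcr2, Cd177, Mpo, Elane, Ctsg and Prtn3 were given by their blanks. The script was tested on simulated data. The alternatives were the block, filter, fill, pseudocount, batch, an erythroid covariate and leaving out each sample. A fill that follows each gene's batch shift was chosen after seeing the data.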

Additional observations from a re-analysis of the deposited data

Results flagged for a closer look

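Of 32 groups of samples (8 genes in 4 groups), 3 had 1 sample far from the rest, judged by its gap to the nearest sample over the range of the group. Chance gives about 1 in 20 such groups. Mmp8 in lumbar female 23 had a gap of 0.679 of the range, and Mmp9 in sacral female 21 a gap of 0.572. Both were blank cells set to 0.5 reads, so the size of these gaps depends on that fill. Ngp in sacral female 21 had a gap of 0.766, with a measured value of 0.36 log2 RPKM against 3.50 to 4.46 in the other 6 sacral females.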

How the results depend on the processing

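Of 6 tested members, the number called between levels was 0 and became 1 of 7 with blanks left missing, where Camp also entered (323 of 13301 genes called in all), and 2 of 6 on the log2(RPKM + 1) scale (341 of 12650), and it ranged from 0 to 2 when single samples were left out (241 to 328 genes called in all, of 12654 to 12727). It stayed 0 with no replicate block and with the replicate block fixed, where 318 and 157 genes of all were called in place of 309. All other contrasts had 0 members called in each alternative. The sign of 5 uncalled values turned, in 6 cases: with the erythroid covariate Lcn2 between levels (−0.070), S100a8 in lumbar (0.16) and Lcn2 in sacral DRG (0.33), on the log2(RPKM + 1) scale Ltf in lumbar DRG (−0.13) and the Mmp8 interaction (−0.27), and with blanks left missing the Mmp8 interaction (−0.35). With samples left out, the lumbar sex values ranged from −0.69 to 0.068 for S100a8, from −0.57 to 0.74 for Ngp and from −0.54 to 0.91 for Ltf, the sacral value of Lcn2 from −0.48 to 0.16, and the interaction from −0.35 to 0.92 for Mmp8 and from −0.67 to 0.17 for S100a9. The cause was not tested. The median r between members ranged from 0.427 to 0.553. Reads limit Camp and Mmp9 most. Sex contrasts could not be fitted with a fixed mouse block, since each mouse has 1 sex.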
